A study of Homo sapiens with 15 samples.

Results

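The Krüppel-like factors (KLF) are transcription factors whose zinc fingers, at the carboxy terminus, bind GC-rich and CACCC-type DNA elements. Expression of 9 of their genes, KLF2, KLF3, KLF4, KLF6, KLF9, KLF10, KLF11, KLF13 and KLF16, was followed by bulk RNA sequencing. They were taken by symbol from the 26364 gene rows of the table, which hold 17 KLF genes in all. The amino-terminal parts of the proteins set what they do at a promoter. KLF3 recruits the CtBP corepressors, KLF9, KLF10, KLF11, KLF13 and KLF16 recruit SIN3 corepressor complexes, and KLF2, KLF4 and KLF6 carry activation domains. In lymphocytes KLF2 is known for quiescence and for control of trafficking, and in myeloma cells it has been described as sustaining IRF4, the plasma cell factor these tumours depend on.

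The cells were RPMI-8226, an established human multiple myeloma line of wild-type genotype as labelled, kept in medium with 10% serum. The study followed their response to KB528, described by the submitters as an inhibitor of the p300 lysine acetyltransferase, over time. The 5 groups of 3 libraries each were DMSO, taken as the 0 h point, and KB528 at 100 nM for 1, 3, 6 and 24 h. DMSO was taken at that 1 time alone, so an effect of KB528 cannot be told apart from an effect of time in culture or of handling. The labels do not say whether the replicates were separate cultures, so the p-values rest on differences among these libraries alone, which could be technical.

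Levels are given in TPM, a measure of transcript abundance scaled by gene length and library depth. Changes are differences of log2(TPM + 1), with 1 TPM added so that low genes do not dominate, which understates the change of low genes. A member was called changed where limma's adjusted p was under 0.05. Of the 9 members, 8 averaged 1 TPM or more across the 15 libraries and were tested among 12002 genes, while KLF4, at a mean of 0.326 TPM, was not. Read totals are not given by a TPM table. The steps of the low values put the depth of the libraries at 0.760 to 1.12 times that of DMSO replicate 1. Spike-in RNA took 9.35% to 16.6% of the TPM, and libraries of 1 group correlated at r = 0.995 to 0.998 across the tested genes. The plasma cell markers were present in DMSO (9 of 9 at 1 TPM or more), and 1 of 4 B cell markers reached 1 TPM there. None of the 4 T cell markers did, and their sum reached 0.952 TPM at most at 24 h. No endothelial or fibroblast marker reached 1 TPM in DMSO, but 1 of 4 monocyte and 2 of 4 erythroid markers did. So did 1 of 4 epithelial markers, EPCAM, at a mean of 113 TPM over the 15 libraries. The summed plasma cell markers ranged from 7595 to 8434 TPM in DMSO and from 5080 to 5252 TPM at 24 h. Among them JCHAIN and MZB1 averaged 3745 and 2076 TPM over the 15 libraries, so the sum mostly follows these genes. The part of the markers in the KLF results was not tested. In bulk samples fewer cells of a type and less RNA per cell cannot be told apart.

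All 8 tested members were lower at 3 h than in DMSO, where 32% of all tested genes were lower. All 8 were higher at 24 h than at 3 h, where 56.2% of all tested genes were higher. The members were chosen with earlier results of these data known, so the shares beside their counts do not test the family. By the moderated F test over the 5 groups 8 of 8 passed, as did 93.6% of tested genes. They differed in when they started to fall, in how far they fell and in how much they regained. KLF10 was already lower at 1 h, KLF6 was higher at 1 h before it fell, and KLF2 was still at 31.4% of its DMSO mean at 24 h. KLF3, KLF6 and KLF10 libraries overlapped DMSO by 6 h and those of KLF9 by 24 h, and KLF13 and KLF16 had their lowest means at 6 h.

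**Figure D1:**
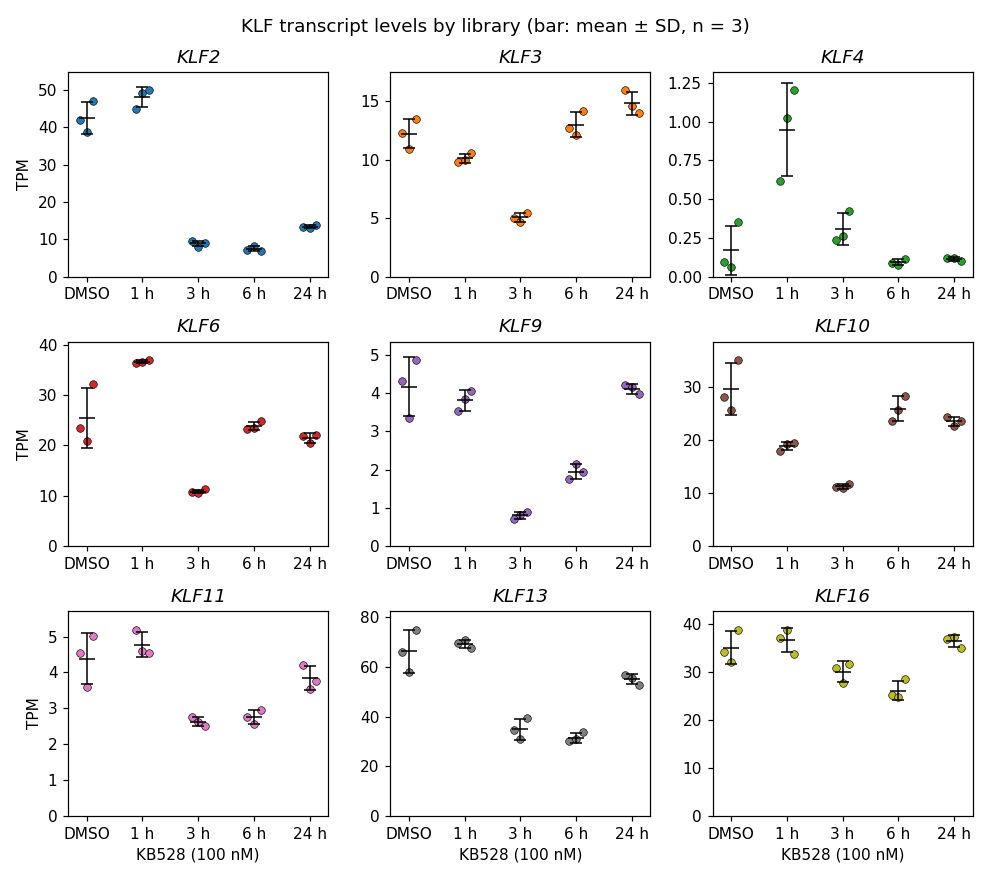
Transcript level (TPM, vertical axis) of each KLF gene in DMSO and after 1, 3, 6 and 24 h of KB528; points are single libraries and bars the mean ± SD of 3. KLF2 stays low from 3 h on, KLF9 returns to its DMSO level by 24 h, and KLF4 is highest at 1 h.

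In DMSO the members covered a wide range. Mean levels fell in the order KLF13 (66.2 ± 8.52 TPM, SD, n = 3), KLF2, KLF16, KLF10, KLF6, KLF3, KLF11, KLF9 and KLF4 (0.170 ± 0.158 TPM). The neighbours KLF2 and KLF16, KLF16 and KLF10, KLF10 and KLF6, and KLF11 and KLF9 overlapped between their libraries, so their order is not resolved. For 9 of 9 members DMSO replicate 2 was the lowest and DMSO replicate 3 the highest of the 3 DMSO libraries, and the same order was found in 52.7% of the tested genes.

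KLF2 had the most negative log2 change of the tested members at 3, 6 and 24 h. Its level was 41.9, 38.7 and 47.1 TPM in DMSO and 45.0, 49.3 and 49.9 TPM at 1 h. It was 9.54, 8.05 and 9.06 TPM at 3 h, 7.17, 8.33 and 6.96 TPM at 6 h, and 13.2, 13.0 and 13.9 TPM at 24 h. The DMSO and 1 h libraries overlapped, and every library from 3 h on lay below all of them. At 3 h the log2 change was -2.14 (SE 0.080, limma adjusted p = 1.71e-11), a level of 20.9% of the DMSO mean. It was the 11th most negative change among the 12002 tested genes at 3 h and again the 11th at 6 h (log2 change -2.36, adjusted p = 4.32e-12). KLF2 was slightly lower at 6 h than at 3 h (-0.22, adjusted p = 0.0291), with overlapping libraries, and higher at 24 h than at 6 h (0.76, adjusted p = 7.22e-07). The regain by 24 h was 13.3% of what had been lost by 3 h. At 1 h the change of 0.17 did not pass (adjusted p = 0.134), but it did without DMSO replicate 3 (0.25, adjusted p = 0.0306).

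The KLF2 promoter window, from 250 bases before the RefSeq start to 50 after it, is shown because the ERK5 kinase and the MEF2 factors are known to drive this gene. Windows were found for 7 of the 9 members, 8 windows in all since KLF11 has a pair of starts. They are from RefSeq on build GRCh38.p14, while the TPM table was made on hg19, so no position is carried from one to the other. Capitals mark a match to the MEF2 site, 120 bases before the start.

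KLF2, chr19:16324576-16324875, plus strand: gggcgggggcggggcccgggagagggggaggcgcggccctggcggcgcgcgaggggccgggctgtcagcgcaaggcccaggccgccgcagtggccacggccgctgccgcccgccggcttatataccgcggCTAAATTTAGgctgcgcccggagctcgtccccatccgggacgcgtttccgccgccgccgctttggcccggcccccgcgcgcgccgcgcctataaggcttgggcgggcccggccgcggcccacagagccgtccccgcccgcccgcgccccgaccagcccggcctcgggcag

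A MEF2 match was found in this window alone among the 8, and in 0.572% of all 35116 RefSeq windows of this length. Searches ran on both strands and a match is a description of the letters, not of binding. KLF2 also held GC boxes (GGGCGG), which were found in 7 of the 8 windows and in 45.0% of all windows. The median G and C content of the 8 windows was 76.3%, against 58.7% over all windows, and the KLF9 window lay below both at 32.7%.

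The level of KLF4, a factor known from cell reprogramming and from arrest of the cell cycle, was very low and highest at 1 h. It was listed at 0.0947, 0.0637 and 0.352 TPM in DMSO, 0.615, 1.03 and 1.20 TPM at 1 h, and 0.235, 0.264 and 0.421 TPM at 3 h. It was 0.0871, 0.0752 and 0.113 TPM at 6 h and 0.117, 0.123 and 0.0982 TPM at 24 h. The 3 libraries at 1 h lay above every other library, and DMSO replicate 3 stood above the other DMSO libraries. The smallest whole read numbers that match these values, to within 0.02 reads in 15 of 15 libraries, were 8, 6 and 28 in DMSO, 47, 83 and 77 at 1 h, 21, 23 and 35 at 3 h, and 7 to 9 at 6 and 24 h; multiples of them match as well. In a fit with no filter on low values the change at 1 h was 0.73 (SE 0.11, limma adjusted p = 0.00245), and the mean level was 5.57 times that of DMSO. Without DMSO replicate 3, a setting added after seeing the data, the mean level was 11.96 times that of DMSO and the change 0.84 (adjusted p = 0.0012). From 1 h to 3 h it fell by 0.57 (adjusted p = 0.00403). The changes at 3, 6 and 24 h against DMSO were 0.16, -0.09 and -0.06, and none of them passed (adjusted p = 0.390, 0.709 and 0.831). The KLF4 window is shown with the short motif of the cyclic AMP response element, TGACG or CGTCA on the other strand, in capitals.

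KLF4, chr9:107489720-107490019, minus strand: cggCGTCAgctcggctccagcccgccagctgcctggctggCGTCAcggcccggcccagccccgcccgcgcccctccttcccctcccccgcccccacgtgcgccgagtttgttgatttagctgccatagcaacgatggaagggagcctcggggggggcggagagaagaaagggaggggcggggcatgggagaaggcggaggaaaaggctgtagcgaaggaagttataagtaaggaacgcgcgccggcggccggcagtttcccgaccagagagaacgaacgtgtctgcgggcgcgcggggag

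The short motif was found in windows of KLF4, KLF11, KLF13 and KLF16 and in 24.6% of all windows. The full element TGACGTCA, which contains it, was found in 1 window of KLF11 and in 1.85% of all windows.

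KLF6, a widely expressed factor known for early induction by growth and injury signals, rose first and then fell. It was 23.4, 20.9 and 32.2 TPM in DMSO, 36.4, 36.6 and 36.9 TPM at 1 h, and 10.7, 10.6 and 11.3 TPM at 3 h. It was 23.2, 23.5 and 24.8 TPM at 6 h and 22.0, 20.4 and 22.1 TPM at 24 h. Libraries at 1 h all lay above DMSO, libraries at 3 h all below it, and later ones overlapped it. The change was 0.53 at 1 h (SE 0.10, limma adjusted p = 0.0019) and -1.14 at 3 h (adjusted p = 2.66e-07), a level of 42.6% of DMSO. The step from 1 h to 3 h, tested directly, was -1.67 (adjusted p = 7.26e-09), and the step from 3 h to 6 h was 1.07 (adjusted p = 7.85e-07). KLF6 at 24 h did not pass (-0.21, adjusted p = 0.078), but did without DMSO replicate 2 (-0.34, adjusted p = 0.00495) and with median-ratio scaling (-0.39). Scaled to the spike-ins, the rise at 1 h did not pass (0.47, adjusted p = 0.285). The KLF6 window carries 2 matches to the CCAAT box, read here as ATTGG on the other strand and set in capitals.

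KLF6, chr10:3785160-3785459, minus strand: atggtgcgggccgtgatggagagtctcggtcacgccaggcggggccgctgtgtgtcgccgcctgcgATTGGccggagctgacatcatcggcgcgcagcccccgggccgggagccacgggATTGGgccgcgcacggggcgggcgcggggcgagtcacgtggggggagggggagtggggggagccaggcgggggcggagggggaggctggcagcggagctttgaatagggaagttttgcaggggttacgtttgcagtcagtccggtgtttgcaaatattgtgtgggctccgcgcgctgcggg

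CCAAT matches were found in the windows of KLF6, KLF9 and KLF13 and in 34.6% of all windows. The E-box CACGTG was found in windows of KLF4, KLF6 and KLF11 and in 7.26% of all windows.

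**Figure D2:**
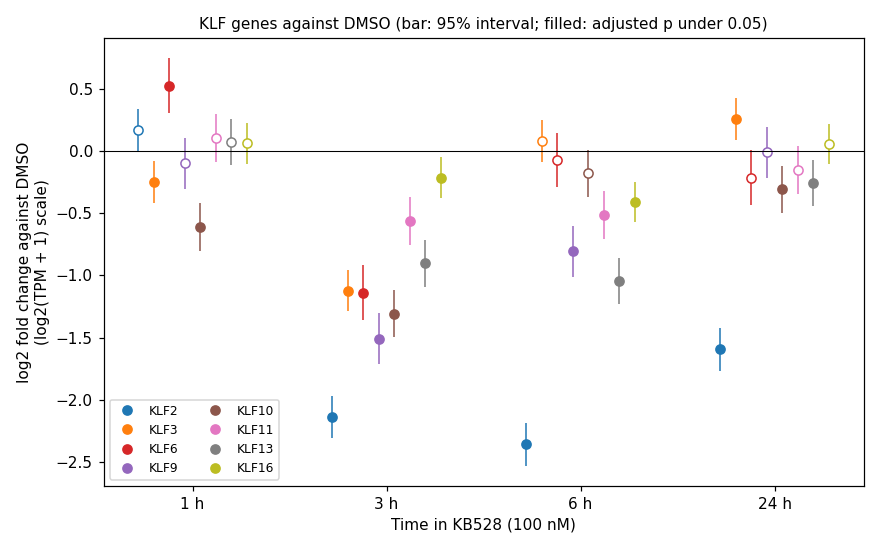
Change in log2(TPM + 1) against DMSO (vertical axis) of the 8 tested KLF genes at 1, 3, 6 and 24 h; bars are 95% intervals from the limma fit and filled points passed an adjusted p of 0.05. All 8 are below 0 at 3 h, and KLF2 remains the lowest at 6 and 24 h.

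KLF3, the member that recruits CtBP and is known as a repressor in B cells and fat cells, fell and then returned above its DMSO level. It was 12.3, 10.9 and 13.5 TPM in DMSO, 9.83, 9.99 and 10.6 TPM at 1 h, and 5.04, 4.70 and 5.47 TPM at 3 h. It was 12.7, 12.2 and 14.2 TPM at 6 h and 15.9, 14.6 and 14.0 TPM at 24 h. At 3 h it was at 41.4% of the DMSO mean, with all libraries below DMSO, and at 24 h all libraries lay above DMSO. The change at 3 h was -1.12 (SE 0.079, limma adjusted p = 1.43e-08), and the step from 3 h to 6 h was 1.21 (adjusted p = 1.07e-08). The fall at 1 h was small (-0.25, adjusted p = 0.0348) and did not pass without DMSO replicate 1 (adjusted p = 0.0887), without DMSO replicate 3 (0.0969) or without any of the 1 h libraries (0.0534 to 0.104). It did not pass either with no filter on low values (adjusted p = 0.0931), in a fit of the compared groups alone (0.0795) or scaled to the spike-ins (-0.30, adjusted p = 0.947). The rise at 24 h was 0.26 (adjusted p = 0.00774) and did not pass with median-ratio scaling (0.09, adjusted p = 0.200) or scaled to the spike-ins (0.24, adjusted p = 0.363). This rise lay near the median of all tested genes at 24 h (0.23), of which 56.1% were higher. Counted from the lowest change it ranked 6530 of 12002.

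KLF10 and KLF11 are the TGF-beta-inducible early genes, both of which recruit SIN3. KLF10 was 28.2, 25.7 and 35.1 TPM in DMSO, 18.0, 19.2 and 19.5 TPM at 1 h, and 11.1, 11.0 and 11.8 TPM at 3 h. It was 23.7, 25.8 and 28.4 TPM at 6 h and 24.3, 22.7 and 23.7 TPM at 24 h. It fell at 1 h already, with all libraries below DMSO (-0.61, SE 0.090, limma adjusted p = 0.000175), the 80th most negative change of the 12002 at that time. It fell further by 3 h (-1.31, adjusted p = 1.16e-08), to 38.1% of DMSO, and rose by 1.13 from 3 h to 6 h. At 6 h it overlapped DMSO and did not pass (-0.18, adjusted p = 0.0895), though it did without DMSO replicate 2 (-0.27), without replicate 3 of the 6 h libraries (-0.24) and with median-ratio scaling (-0.34, adjusted p = 0.000604). At 24 h it was lower than DMSO (-0.31, adjusted p = 0.00656), a call lost when scaled to the spike-ins (-0.32, adjusted p = 0.222). The step from 6 h to 24 h did not pass (-0.13, adjusted p = 0.217).

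KLF11, expressed at a lower level, was reduced at 3 h and 6 h. It was 4.54, 3.61 and 5.01 TPM in DMSO, 5.19, 4.60 and 4.55 TPM at 1 h, and 2.77, 2.62 and 2.50 TPM at 3 h. It was 2.77, 2.56 and 2.96 TPM at 6 h and 4.20, 3.54 and 3.77 TPM at 24 h. The 3 h and 6 h libraries all lay below DMSO, and those at 1 h and 24 h overlapped it. The change was 0.11 at 1 h (adjusted p = 0.414), -0.56 at 3 h (SE 0.092, limma adjusted p = 9.33e-05) and -0.51 at 6 h (adjusted p = 0.000147). From 6 h to 24 h KLF11 rose by 0.36 (adjusted p = 0.00266), and at 24 h it did not pass against DMSO (-0.15, adjusted p = 0.152), though it did without DMSO replicate 2 (-0.26) and with median-ratio scaling (-0.30, adjusted p = 0.00305). Scaled to the spike-ins, the 6 h change did not pass (-0.37, adjusted p = 0.0860).

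KLF9, a glucocorticoid- and thyroid hormone-induced repressor, kept the smallest share of its DMSO mean at 3 h and was back in the DMSO range at 24 h. It was 4.31, 3.34 and 4.86 TPM in DMSO, 3.52, 3.85 and 4.07 TPM at 1 h, and 0.699, 0.815 and 0.902 TPM at 3 h. It was 1.75, 2.14 and 1.95 TPM at 6 h and 4.20, 4.15 and 3.98 TPM at 24 h. Its level at 3 h was 19.3% of DMSO, with a log2 change of -1.51 (SE 0.097, limma adjusted p = 5.08e-09), the 62nd most negative of the 12002. It was at 46.6% at 6 h (-0.80, adjusted p = 2.91e-06). By 24 h it had regained 98.1% of the loss, with a change of -0.01 against DMSO (95% interval -0.21 to 0.20, adjusted p = 0.952). Its 24 h and DMSO libraries overlapped.

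KLF13, known in T cells for driving the chemokine gene CCL5, was the most abundant member and stayed low until 6 h. It was 65.9, 57.9 and 74.9 TPM in DMSO, 69.4, 71.0 and 67.8 TPM at 1 h, and 34.6, 30.8 and 39.3 TPM at 3 h. It was 30.0, 30.8 and 33.8 TPM at 6 h and 56.8, 55.7 and 52.8 TPM at 24 h. The 3 h and 6 h libraries all lay far below DMSO, and the 24 h libraries lay just below its lowest library. The change was -0.90 at 3 h (SE 0.087, limma adjusted p = 5e-07) and -1.04 at 6 h (adjusted p = 6.99e-08), at 52.7% and 47.6% of DMSO. From 6 h to 24 h it rose by 0.79, to 83.1% of DMSO (-0.26, adjusted p = 0.0165). The 24 h call was lost without DMSO replicate 3 (-0.16, adjusted p = 0.0913) and without replicate 3 of the 24 h libraries (-0.23, adjusted p = 0.0585). It was also lost with no filter (adjusted p = 0.0625) and scaled to the spike-ins (-0.27, adjusted p = 0.317). The KLF13 window is shown, with its 2 CCAAT matches, 1 on each strand, in capitals.

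KLF13, chr15:31326585-31326884, plus strand: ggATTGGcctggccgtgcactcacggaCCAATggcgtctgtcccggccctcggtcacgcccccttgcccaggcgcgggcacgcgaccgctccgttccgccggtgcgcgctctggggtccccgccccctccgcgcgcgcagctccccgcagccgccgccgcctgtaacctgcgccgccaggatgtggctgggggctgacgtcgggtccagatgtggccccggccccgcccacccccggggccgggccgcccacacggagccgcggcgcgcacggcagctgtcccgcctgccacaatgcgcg

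KLF16, a further SIN3-recruiting member, had the smallest change at 3 h among the 8 tested. It was 34.3, 32.1 and 38.9 TPM in DMSO, 37.3, 38.9 and 33.9 TPM at 1 h, and 31.0, 27.7 and 31.7 TPM at 3 h. It was 25.2, 24.8 and 28.5 TPM at 6 h and 36.9, 37.5 and 35.0 TPM at 24 h. All 3 h and 6 h libraries lay below DMSO, with a gap at 3 h that was narrow. The change at 3 h was -0.21 (SE 0.076, limma adjusted p = 0.0275) and did not pass without DMSO replicate 3 (-0.14, adjusted p = 0.134) or without replicate 2 of the 3 h libraries (-0.15, adjusted p = 0.117). It did not pass either with no filter (adjusted p = 0.0852), with the compared groups alone (0.0708) or with TPM rescaled without the spike-ins (0.0536). Scaled to the spike-ins, the 3 h change was larger (-0.43) but so was its SE (0.20), and it did not pass (adjusted p = 0.102). In the main fit the 6 h change was -0.41 (adjusted p = 0.000209, 74.6% of DMSO). Scaled to the spike-ins, the 6 h change was -0.22 (adjusted p = 0.366). At 24 h KLF16 did not pass in the main fit (0.06, adjusted p = 0.514), and it had risen by 0.47 since 6 h. The KLF16 window is shown with its GC boxes in capitals. It holds 7 overlapping or separate matches and 86% G and C, and like every window other than that of KLF2 it has no MEF2 match.

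KLF16, chr19:1863530-1863829, minus strand: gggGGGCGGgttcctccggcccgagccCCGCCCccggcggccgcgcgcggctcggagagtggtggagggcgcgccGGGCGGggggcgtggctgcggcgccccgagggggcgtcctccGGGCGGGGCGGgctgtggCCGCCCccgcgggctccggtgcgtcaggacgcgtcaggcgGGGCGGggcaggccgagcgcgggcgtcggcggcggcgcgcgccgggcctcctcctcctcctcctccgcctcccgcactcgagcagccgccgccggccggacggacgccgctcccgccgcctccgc

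None of the 8 windows held the TATA box TATAAA (11.5% of all windows), the AP-1 site TGACTCA (4.95%), the serum response element (1.29%), the NF-kB site (5.91%) or the IRF element (3.57%). CACCC, the letters of a classical KLF element, was found in 2 of the 8 windows, those of KLF11 and KLF13, and in 59.9% of all.

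Counted over the members, 3 of 8 changed at 1 h, KLF6 higher and KLF3 and KLF10 lower, where 22.6% of all tested genes passed, 15% higher and 7.57% lower. At 3 h 8 of 8 were lower, where 56.9% passed, 24.9% higher and 32% lower, with a median change of -1.13 against -0.04 over all tested genes. At 6 h 5 of 8 were lower, KLF2, KLF9, KLF11, KLF13 and KLF16, where 68.9% passed, 44.4% higher and 24.5% lower, with medians of -0.46 and 0.12. At 24 h KLF2, KLF10 and KLF13 were lower and KLF3 higher, where 71.4% passed, 56.1% higher and 15.2% lower. The median over the members was then -0.18 and over all tested genes 0.23. A fall by 3 h followed by a rise from 3 h to 24 h was found in 8 of 8 members and in 26.1% of tested genes. From 1 h to 3 h 8 of 8 fell, where 31.8% of tested genes fell. From 3 h to 6 h KLF3, KLF6, KLF9 and KLF10 rose (42.3% of tested genes) and KLF2 and KLF16 fell (13.7%). The 4 rises passed under both other scalings, but the 2 falls were no longer called with no filter or scaled to the spike-ins. These falls were also lost without replicate 1 or 3 of the 3 h libraries, or without replicate 1 of the 6 h libraries. Only 1 member fell in a fit of the compared groups alone, or without replicate 2 or 3 of the 6 h libraries. With median-ratio scaling 3 members fell. Over this step 61.3% of tested genes rose and 1.93% fell when scaled to the spike-ins, and 25.9% rose and 29.8% fell with median-ratio scaling. From 6 h to 24 h 5 rose (41% of tested genes) and none fell (26% of tested genes). These comparisons share libraries, so their counts do not stand independently. The choice of members was also made with earlier results of these data known. With median-ratio scaling, under which the median change of the tested genes was -0.03 at 6 h and 0.06 at 24 h, 7 members were lower and 0 higher at 6 h, where 38.2% of tested genes were lower. At 24 h 5 members were lower and 0 higher under that scaling, where 29.0% of tested genes were lower. Scaled to the spike-ins, under which the median change of the tested genes was -0.25 at 3 h and 0.29 at 6 h, the members that were lower numbered 7 at 3 h, 3 at 6 h and 1 at 24 h. KLF2 was among them each time. Scaled to the spike-ins, 21.0%, 8.29% and 5.47% of tested genes were lower at 3, 6 and 24 h.

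**Figure D3:**
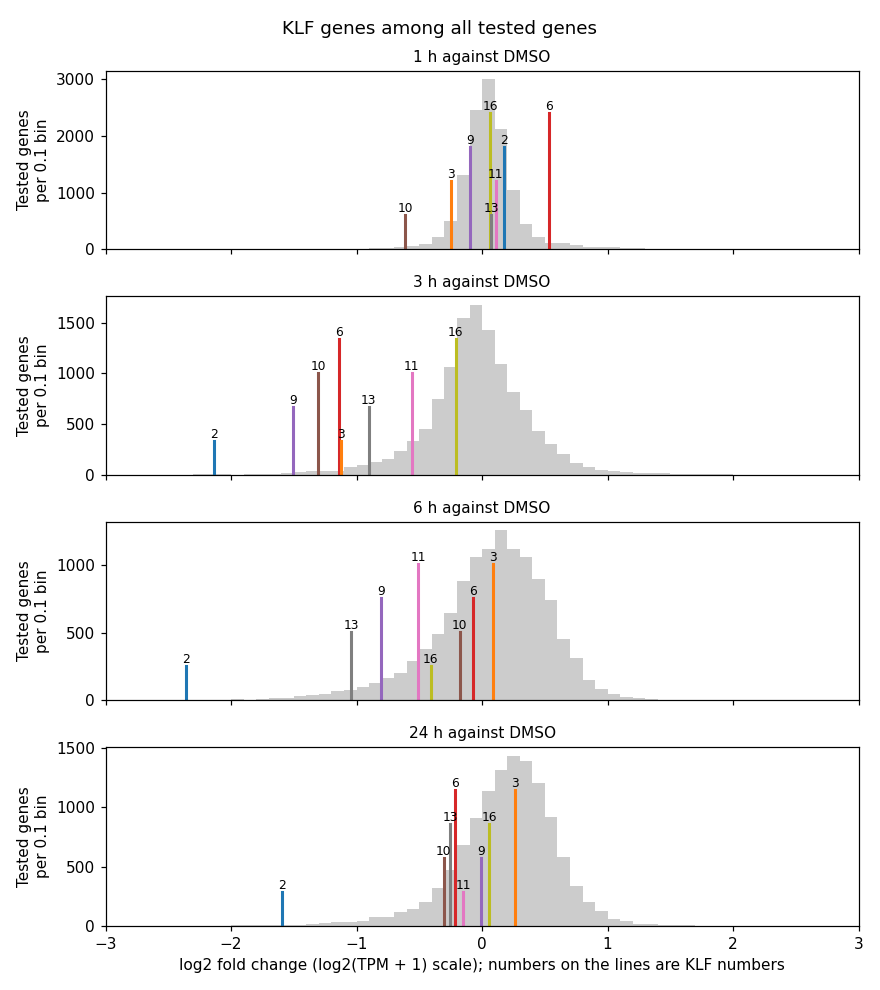
Number of tested genes (vertical axis) by change in log2(TPM + 1) against DMSO at 1, 3, 6 and 24 h (horizontal axis), with lines at the 8 tested KLF genes, labelled by number (line heights only keep the labels apart). At 3 h the members' median is -1.13 and that of all tested genes -0.04.

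Summed over the 9 members, the level was 220.1 ± 29.7 TPM in DMSO and 229 ± 4.72 TPM at 1 h. It was 105 ± 7.98 TPM at 3 h, 133 ± 7.88 TPM at 6 h and 173 ± 4.22 TPM at 24 h (SD, n = 3). All libraries from 3 h on lay below the lowest DMSO library, at 193 TPM. The make-up changed as well. KLF2 held 19.4% ± 0.67 of the summed TPM of the 9 in DMSO, and 8.47% ± 0.50 at 3 h, 5.66% ± 0.74 at 6 h and 7.74% ± 0.42 at 24 h. KLF16 held 16.0% ± 0.60 in DMSO and 28.8% ± 0.55 at 3 h, and KLF13 held 30.1% ± 0.47 and 33.2% ± 1.55.

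**Figure D4:**
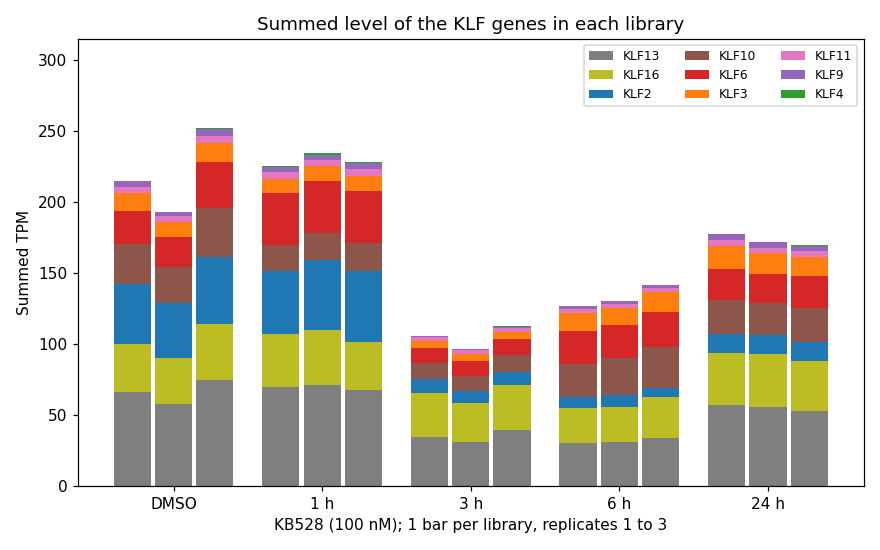
Summed level (TPM, vertical axis) of the 9 KLF genes, 1 bar per library and 3 per group, stacked by gene. The sum falls from 193 to 252 TPM in DMSO to 96.6 to 112 TPM at 3 h, and the mean share of KLF2 falls from 19.4% to 8.47%.

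Member patterns over the 15 libraries paired unevenly. Among the tested pairs Pearson's r of log2(TPM + 1) was highest for KLF11 and KLF13 (0.947) and for KLF3 and KLF10 (0.917), and lowest for KLF10 and KLF16 (0.171) and for KLF2 and KLF3 (0.204). These are descriptions over libraries that share groups. Among genes of at least 5 TPM the most like KLF2 was CYTH4 (r = 0.992), which stood at 17.0 TPM in DMSO, 5.17 at 3 h, 4.27 at 6 h and 7.58 TPM at 24 h, followed by ST3GAL6 (0.984). For KLF3 they were TLR6 (0.990) and IRF1 (0.986), for KLF6 RAB11FIP5 (0.971) and MAST4 (0.966), and for KLF9 MXI1 (0.989) and FLI1 (0.988). For KLF10 they were ITPRIPL1 (0.972) and CXCR4 (0.965), for KLF11 SNTB2 (0.967) and TMEM63A (0.965), for KLF13 BCL9L (0.990) and ARHGAP17 (0.987), and for KLF16 HSF4 (0.977) and ELMO1 (0.967).

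Of the 8 other KLF genes in the table, 3 were tested. KLF7 was 5.22 ± 0.85 TPM in DMSO, 1.38 ± 0.14 TPM at 3 h (-1.38, limma adjusted p = 3.09e-09), 4.10 ± 0.11 TPM at 6 h and 6.02 ± 0.40 TPM at 24 h. KLF15 fell from 25.8 ± 1.55 to 8.55 ± 0.75 TPM at 3 h (-1.49, adjusted p = 1.85e-10) and was still lower at 24 h (-0.86). KLF5 went the other way, higher at all 4 times, from 1.65 ± 0.33 to 3.54 ± 0.36 TPM at 3 h (0.78, adjusted p = 1.46e-05). Of the related SP factors, which bind the same GC boxes, 4 of 9 were tested. At 3 h SP2, SP3 and SP4 were higher and SP1 lower (-0.53, adjusted p = 0.000155), and at 24 h all 4 were higher (SP4 0.66, SP2 0.43, SP1 0.41, SP3 0.39). Over all tested genes 24.9% were higher and 32% lower at 3 h. At 24 h 56.1% of them were higher and 15.2% lower, with a median change of 0.23.

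Of 12 listed ERK5 and MEF2 regulators, 11 were tested and 8 were lower and 2 higher at 3 h, with a median of -0.27, where 32% of all tested genes were lower and 24.9% higher, with a median of -0.04. MEF2C, a factor that binds MEF2 sites, went from 27.8 ± 2.86 TPM in DMSO to 13.7 ± 0.57 TPM at 3 h (-0.96, limma adjusted p = 6e-09) and 27.4 ± 0.77 TPM at 24 h. HDAC7, a deacetylase that represses MEF2 factors, went from 39.9 ± 4.43 to 18.1 ± 1.53 TPM at 3 h (-1.09) and 44.8 ± 0.10 TPM at 24 h. MAP2K5, the kinase upstream of ERK5, was lower at 3 h (-0.18) and higher at 24 h (0.53). At 24 h 5 of the 11 were higher and 1 lower (56.1% and 15.2% of all tested genes), while KLF2 was still lower.

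**Figure D5:**
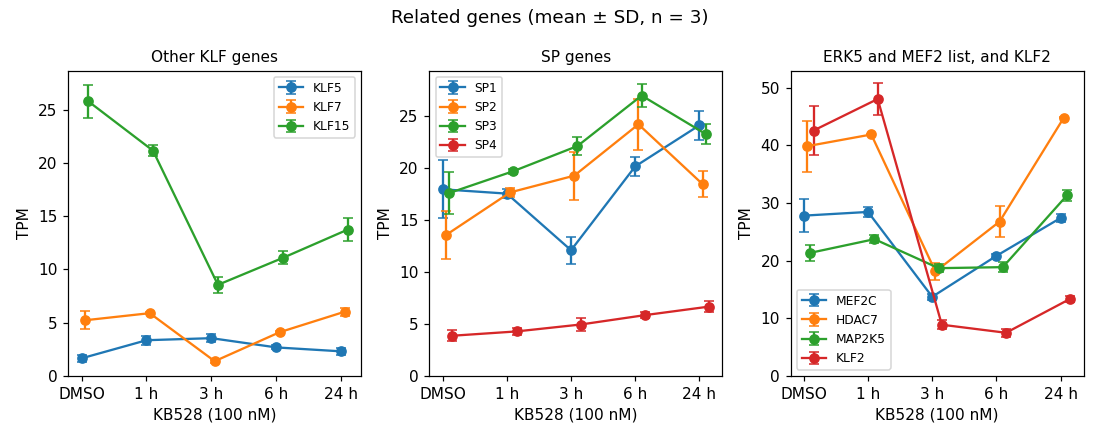
Level (TPM, vertical axis, mean ± SD of 3) of KLF5, KLF7 and KLF15, of SP1 to SP4, and of MEF2C, HDAC7, MAP2K5 and KLF2, in DMSO and at 1, 3, 6 and 24 h of KB528. MEF2C and HDAC7 are back near DMSO at 24 h, and KLF2 is not.

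Of 8 listed genes linked to KLF2, 5 were tested. At 6 h 4 of them were lower, where 24.5% of all tested genes were lower, with a median change of -0.38 against 0.12. At 24 h 3 were lower and 2 higher, where 15.2% and 56.1% of all tested genes were. ITGB7, an integrin chain of gut and marrow homing, was 2538 ± 120 TPM in DMSO, 2076 ± 102 TPM at 3 h and 1156 ± 22.6 TPM at 24 h (-1.13, limma adjusted p = 6.43e-11). S1PR1, the receptor that lets lymphocytes leave tissues, was lower at all 4 times and lowest at 3 h (2.36 ± 0.16 to 0.316 ± 0.12 TPM, -1.36). IRF4 did not pass at 3 h (85.8 ± 6.90 against 91.6 ± 10.5 TPM, adjusted p = 0.316), and was lower at 6 h (39.2 ± 2.90 TPM, -1.20) and at 24 h (-0.55).

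Of the SIN3 and CtBP corepressor genes, 16 of 17 were tested, with 3 higher against 7 lower by 3 h, then 10 higher against 2 lower by 6 h. Over all tested genes 24.9% were higher and 32% lower at 3 h, and 44.4% and 24.5% at 6 h. The medians of the corepressor genes were -0.08 and 0.25, beside -0.04 and 0.12 over all tested genes. BRMS1, a SIN3 complex subunit, was higher at 3 h (0.38) and 6 h (0.61) and lower at 24 h (-0.27). ARID4A, another, was lower at 3 h (-0.22) and higher at 24 h (0.66), and HDAC1 was higher at 24 h (0.45). All 16 TGF-beta and SMAD genes were tested, and 4 were higher and 7 lower at 3 h, with a median of -0.07. SKIL, a repressor of SMAD signalling, rose from 3.53 ± 0.41 to 16.0 ± 1.50 TPM at 3 h (1.91, limma adjusted p = 2.63e-11), and ID3 fell by 0.80 at 3 h. KLF10 and KLF11 were both lower at 3 h. Of the 8 listed glucocorticoid-response genes, 6 were tested, with 4 higher against 1 lower by 1 h, then 1 higher against 4 lower by 3 h. At 1 h 15% of all tested genes were higher and 7.57% lower. NR3C1, the glucocorticoid receptor, was 14.6 ± 1.61 TPM in DMSO, 7.04 ± 0.39 TPM at 3 h (-0.95) and 15.6 ± 0.70 TPM at 24 h, TSC22D3 was higher at 1 h (0.80), and DUSP1 was lower at 3 h (-2.23). Of 6 listed ubiquitin ligases of KLF proteins, all tested, 2 were higher and 2 lower at 3 h. FBXO32 was lower (-1.02), WWP1 was lower (-0.23), and BTRC did not pass (0.04, adjusted p = 0.688).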

How the data were processed

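Strand-specific mRNA libraries of RPMI-8226 cells were processed by the authors to a deposited table of TPM. Tools listed in the submitters' processing notes are STAR, featureCounts, FastQC and MultiQC, with the build hg19; their versions, the annotation and the strand setting are not given in the sources used here. The unit is known from the table's name and from its values, which sum to 1000000 in each library, 92 spike-in rows included. The columns of untreated cells at 0 h were matched to the DMSO libraries by time and replicate number, since the series design gives 0 h as DMSO. No column was left unused.

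Genes averaging 1 TPM or more were tested with limma 3.58.1 (R 4.3.3) on log2(TPM + 1), with spike-in rows left out, a variance trend, all 15 libraries in 1 model and Benjamini-Hochberg adjustment within each contrast. The script was tested on simulated data. Alternatives were a pseudocount of 0.1, no filter or a filter of 5 TPM, other scalings, fits of only the groups compared, no variance trend, a replicate block and leaving out each library. The smallest whole read numbers of KLF4 were fitted to the steps between low values. Motifs were searched with Python 3.11.15.

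The members and lists were chosen with earlier results of these data known. All members were named, at most 3 tested genes of each list with the smallest F test p, and the 2 genes most like each member; 1 gene this names is not reported here.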

Additional observations from a re-analysis of the deposited data

Results flagged for a closer look

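KLF3 moved in opposite directions against DMSO at different times, and the difference itself was tested with limma. It was lower at 1 h and at 3 h and higher at 24 h, when 56.1% of all tested genes were higher, with a median change of 0.23. Between 24 h and 1 h the log2 difference was 0.51 (adjusted p = 3.58e-05, 24 h higher in 3 of 3 libraries), and between 24 h and 3 h it was 1.38 (adjusted p = 5.78e-10). The calls of KLF3 against DMSO at 1 h and at 24 h did not hold under every setting, as given with its values.

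KLF6 was higher than DMSO at 1 h and lower at 3 h. The log2 difference of 3 h against 1 h was -1.67 (adjusted p = 7.26e-09), with all 3 h libraries below all 1 h libraries. These comparisons share libraries with those in the report.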

How the results depend on the processing

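Over all members, times and alternatives, single-gene changes against DMSO kept their direction and side of the threshold 431 times. They lost the threshold 24 times, gained it 11 times and turned sign 14 times, and all 14 were changes that passed under neither setting. Other filters, no variance trend, the replicate block and the compared groups alone cannot move the change itself, only its call. KLF4, with no call in the main fit, counted as kept where its change moved by no more than the larger SD of the compared groups. Its fit with no filter was compared with itself. With median-ratio scaling KLF3 at 6 h turned to -0.067 and KLF16 at 24 h to -0.13. Scaled to the spike-ins, KLF6 at 6 h turned to 0.11 and KLF10 at 6 h to 0.0057. With each library left out in turn, KLF9 ranged from -0.22 to 0.0014 at 1 h and from -0.13 to 0.089 at 24 h, KLF11 from -0.00039 to 0.19 and KLF13 from -0.018 to 0.17 at 1 h, KLF6 from -0.20 to 0.10 at 6 h and KLF16 from -0.0028 to 0.13 at 24 h. Without DMSO replicate 3 and with no filter, KLF4 turned to 0.016 at 6 h and 0.044 at 24 h. Scaled to the spike-ins, the members called were 1 at 1 h, 3 at 6 h and 1 at 24 h, all lower. From 6 h to 24 h 3 were called, all higher. Under that scaling 2.90% of all tested genes were higher and 1.02% lower at 1 h. At 6 h 34.3% and 8.29% were, at 24 h 20.3% and 5.47%, and from 6 h to 24 h 13.7% and 17.0%. At 24 h KLF3, KLF10 and KLF13 lost their calls with changes of 0.24, -0.32 and -0.27, against 0.26, -0.31 and -0.26 in the main fit. Their SEs were 0.20 each, against 0.079, 0.090 and 0.087. At 6 h KLF11 and KLF16 lost theirs with smaller changes (-0.37 and -0.22, against -0.51 and -0.41) and larger SEs. The cause of the larger SEs was not tested. With a filter of 5 TPM they were 3 at 6 h and 3 from 6 h to 24 h, of 6 tested, since KLF9 and KLF11 fall out. With each library left out in turn, the members called ranged from 2 to 3 at 1 h, 7 to 8 at 3 h, 5 to 6 at 6 h, 3 to 6 at 24 h, 8 to 8 over the time course, 8 to 8 from 1 h to 3 h, 4 to 7 from 3 h to 6 h and 5 to 6 from 6 h to 24 h. With a replicate block they were 3, 8, 6 and 5 at 1, 3, 6 and 24 h and 8 over the time course. They were then 8 from 1 h to 3 h, 6 from 3 h to 6 h and 6 from 6 h to 24 h. With the block 2926, 6950, 8384 and 8636 of the 12002 tested genes passed at 1, 3, 6 and 24 h. From 1 h to 3 h 5777 of them passed, from 3 h to 6 h 6847 and from 6 h to 24 h 8149. Shares of all tested genes are not given for the 5 TPM filter, for left-out libraries or for the F test under the block. Under the block KLF10 passed at 6 h (adjusted p = 0.0459) and KLF6 at 24 h (adjusted p = 0.0453). The numbers were not treated as pairing the samples. Of 12 same-numbered pairs with DMSO, 5 had a correlation of deviations over 0.1 (range -0.291 to 0.634), and 7 of 12 correlated best with their own number. At 6 h all of them did (0.285, 0.256 and 0.349). At 3 h those of replicates 2 and 3 did (0.521 and 0.634) and that of replicate 1 did not (-0.291). A pairing at 3 h and 6 h is therefore not excluded. For KLF4 the low level is a limit, at a mean of 0.170 TPM in DMSO. The smallest read numbers that match its DMSO values are 6 to 28, and multiples of them match as well.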

Other observations

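Some KLF and SP genes below the test's level are given as values with no test. SP6 was 0.0609 ± 0.034 TPM in DMSO, 0.313 ± 0.028 TPM at 1 h, 0.566 ± 0.047 TPM at 3 h and 0.0725 ± 0.030 TPM at 24 h (SD, n = 3). KLF1, an erythroid factor, was 0.362 ± 0.12 TPM in DMSO, 0.976 ± 0.15 TPM at 3 h and 0.411 ± 0.059 TPM at 24 h. KLF8 was 0.661 ± 0.11 TPM in DMSO and 1.20 ± 0.12 TPM at 24 h, and KLF12 0.0453 ± 0.020 and 0.156 ± 0.020 TPM. KLF17 was listed at 0 in every library.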
